A study of Mus musculus with 12 samples.

Results

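The 9 endoderm genes Gata4, Gata6, Sox7, Sox17, Foxa1, Foxa2, Hnf4a, Dab2 and Pdgfra were taken by symbol from an RNA-seq count table of 24495 genes. All 9 passed the count filter and were among the 15532 genes tested. The study followed mouse embryonic stem cells (mESCs) of the CCE-Nanog-GFP line, sorted for GFP, as they differentiated after a short hairpin against the protease cathepsin L had been introduced. The control line shSC, whose libraries are labelled scr or WT, and the line shCTSL, labelled KD, were each sequenced undifferentiated (Day 0) and as embryoid bodies (EBs) at Day 2 and Day 4. EBs were kept rotating without LIF and with all-trans retinoic acid. Each of the 6 groups holds 2 libraries, and both lines carry a puromycin-selected lentiviral hairpin, so that no uninfected cells are in the comparison. The knockdown is represented by a single shCTSL line. Since the replicates come from the same lines, p-values measure the spread between these libraries only.

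Endoderm gives rise to the yolk sac linings and to the gut and its organs. Extraembryonic (primitive) endoderm forms before gastrulation under Gata6, Gata4, Sox17 and Sox7, with Pdgfra on its surface and the adaptor Dab2 inside, and divides into visceral and parietal endoderm. Definitive endoderm forms later, during gastrulation, and uses Sox17, Foxa1 and Foxa2 again. None of these genes belongs to endoderm alone: Gata4, Gata6 and Pdgfra are also used in heart and other mesoderm, Foxa1 and Foxa2 in the floor plate of the neural tube, and Sox7 and Sox17 in endothelium.

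The libraries held 11171111 to 27155553 counted reads. Ctsl, the targeted gene, was lower in shCTSL at Day 0 (log2 fold change -1.89 ± 0.15 (SE), adjusted p = 0.00246) and Day 2 (-1.06 ± 0.14, adjusted p = 0.0342), while its Day 4 difference of -0.83 ± 0.14 did not pass (adjusted p = 0.0896, edgeR's quasi-likelihood test with Benjamini-Hochberg adjustment throughout). Day 0 libraries had the stem cell factors of mESCs, with Pou5f1 at 1556 ± 15.2 and Nanog at 545 ± 2.31 normalized CPM in shSC (mean ± SD, n = 2). The shCTSL Day 2 libraries stand apart from each other: the SD of their log2 ratio over genes was 0.673, against 0.246 to 0.432 in the other groups, and the log2 ratio of replicate 1 to replicate 2 fell with exonic length (Spearman correlation -0.574 across 14027 genes, which are not independent replicates). That correlation was -0.274 at shCTSL Day 0, 0.364 at shCTSL Day 4 and 0.0353 to 0.147 in the shSC groups. Replicate 1 of that group also had the most Rn45s, 3.43% of counts against 0.17 to 1.43% elsewhere. Calls or values that either library of shCTSL Day 2 decides are given without it. In bulk RNA, fewer cells of a type and less RNA per cell cannot be told apart.

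At Day 0 the 9 genes were at low levels. Their summed level was 15.5 to 15.6 normalized CPM (CPM, counts scaled to library totals and to the TMM factors between libraries) in the shSC libraries and 17.7 to 19.6 in shCTSL. Gata4, Sox7 and Dab2 had 43 to 78 counts in each Day 0 library. Gata6, Hnf4a and Pdgfra had 9 to 22. Foxa1 had 5 to 9, Sox17 had 1 to 6, and Foxa2 had 1 to 4. Sox17 and Foxa2 reached the filter's cutoff of 0.57 CPM in 0 of 4 Day 0 libraries and Foxa1 in 1 of 4, so these 3 genes entered the test through the later days and had to differ from Day 0. By Day 4 the summed level was 546 to 601 normalized CPM in shSC and 545 to 608 in shCTSL.

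Gata6, a zinc finger factor that starts the primitive endoderm program (chr18:11052508-11085633, mm9, plus strand), was at 1.07 and 0.929 normalized CPM in the shSC Day 0 libraries, at 89.1 and 86.1 at Day 2, and at 142 and 172.5 at Day 4. In shCTSL it was at 1.64 and 1.05, then 72.2 and 91.0, then 189 and 175. Every later library was above every earlier day's library in its line, and the lines overlapped at Day 0 and Day 2. From Day 0 to Day 2 Gata6 rose by a log2 fold change of 6.45 ± 0.22 in shSC and 5.87 ± 0.22 in shCTSL (adjusted p = 2.02e-08 and 2.88e-08). It rose again from Day 2 to Day 4, with a change of 0.84 ± 0.15 and 1.15 ± 0.15 (adjusted p = 0.00213 and 0.000382).

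Gata4, its partner in the same program and a heart factor (chr14:63817759-63890529, minus strand), began higher and climbed more evenly. The shSC libraries were at 3.97 and 3.97 normalized CPM at Day 0, 26.7 and 26.5 at Day 2, and 73.5 and 80.9 at Day 4. The shCTSL libraries were at 3.804 and 4.53, then 22.1 and 25.9, then 83.6 and 73.2. The days did not overlap in either line. Day 2 was only 34.5% of the Day 4 mean in shSC and 30.6% in shCTSL, the lowest shares among the 9 genes. The log2 fold change of this second step was 1.54 ± 0.13 in shSC and 1.71 ± 0.13 in shCTSL (adjusted p = 2.19e-05 and 1.4e-05), after a first step of 2.74 ± 0.15 and 2.54 ± 0.15.

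Sox7 and Sox17 are closely related HMG-box factors of extraembryonic endoderm and of endothelium. Sox7 (chr14:64562511-64569569, plus strand) was at 4.04 and 3.59 normalized CPM in shSC at Day 0, 38.4 and 40.1 at Day 2, and 36.4 and 42.9 at Day 4, so that Day 2 and Day 4 overlapped. In shCTSL it was at 5.82 and 5.58, then 28.4 and 35.6, then 47.2 and 39.0, with no overlap of days. Sox7 rose between Day 0 and Day 2, with log2 fold changes of 3.36 ± 0.18 in shSC and 2.49 ± 0.17 in shCTSL (adjusted p = 2.17e-07 and 1.18e-06). From Day 2 to Day 4 its difference was 0.01 ± 0.15 in shSC (95% interval -0.32 to 0.35) and 0.43 ± 0.15 in shCTSL (adjusted p = 0.0555).

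Sox17 (chr1:4481009-4486494, minus strand) had the fewest reads in shSC at Day 0, with 2 and 2 counts, and 1 and 6 in shCTSL. At Day 2 it was at 14.4 and 17.4 normalized CPM in shSC and 18.6 and 14.5 in shCTSL, and the lines overlapped. At Day 4 it was at 19.4 and 14.8 in shSC and 12.3 and 10.1 in shCTSL, where both shCTSL libraries were below both shSC libraries. The pooled counts gave a Day 2 to Day 0 ratio of 115 in shSC (95% interval 44.6 to 422) and 52.9 in shCTSL (25.5 to 132), and these intervals cover counting error only. In shCTSL the size of the rise depended on which Day 0 library was fitted, with a fitted log2 fold change of 4.69 without replicate 1, which had 1 count, and 7.67 without replicate 2, which had 6. From Day 2 to Day 4 Sox17 differed by 0.11 ± 0.25 on the log2 scale in shSC and -0.56 ± 0.26 in shCTSL (adjusted p = 0.783 and 0.128).

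Foxa1 and Foxa2 are forkhead factors that open chromatin for gut and liver genes. Foxa1 (chr12:58641618-58647108, minus strand) was at 0.381 and 0.372 normalized CPM in shSC at Day 0, 81.9 and 81.5 at Day 2, and 84.1 and 94.2 at Day 4. The shCTSL libraries were at 0.671 and 0.632, then 69.0 and 103.8, then 93.4 and 88.1. Its Day 2 level was thus near its Day 4 level in both lines, 91.6% of it in shSC and 95.3% in shCTSL. The pooled counts rose 217-fold to Day 2 in shSC (95% interval 121 to 436) and 137-fold in shCTSL (82.8 to 245). The later step was 0.13 ± 0.16 on the log2 scale in shSC and 0.07 ± 0.16 in shCTSL, with adjusted p of 0.616 and 0.788.

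Foxa2 (chr2:147868613-147872705, minus strand) was the one member with its highest mean at Day 2 in both lines. It was at 0.229 and 0.248 normalized CPM in shSC at Day 0, 32.0 and 36.1 at Day 2, and 26.7 and 25.7 at Day 4. In shCTSL it was at 0.149 and 0.105, then 37.7 and 37.5, then 24.3 and 22.7. Day 4 lay below Day 2 in all libraries of each line. From Day 2 to Day 4 Foxa2 fell in shCTSL by 0.68 ± 0.11 on the log2 scale (adjusted p = 0.00168). In shSC the difference was -0.38 ± 0.11 with an adjusted p of 0.0306, a 0.77-fold level that is short of the 1.5-fold change required for a call. From Day 0 to Day 2 the pooled counts went from 7 to 1789 in shSC, a ratio of 141 (95% interval 68.4 to 352), and from 3 to 1493 in shCTSL, a ratio of 287 (97.9 to 1390).

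Hnf4a, a nuclear receptor of visceral endoderm and liver (chr2:163332544-163398646, plus strand), made the smallest change from Day 0 in shSC. It was at 1.37 and 1.30 normalized CPM in shSC at Day 0, 3.82 and 3.11 at Day 2, and 7.60 and 9.22 at Day 4. For shCTSL the levels were 0.746 and 0.948, then 3.82 and 4.09, then 9.20 and 7.38. The days did not overlap within a line. Hnf4a rose in both steps. Its log2 fold change to Day 2 was 1.38 ± 0.24 in shSC and 2.24 ± 0.27 in shCTSL (adjusted p = 0.00053 and 5.14e-05), and a further 1.27 ± 0.19 and 1.06 ± 0.19 followed to Day 4 (adjusted p = 0.000764 and 0.00238).

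Dab2, an endocytic adaptor of visceral and parietal endoderm (chr15:6249788-6390712, plus strand), was at 3.36 and 4.09 normalized CPM in shSC at Day 0, 65.6 and 62.7 at Day 2, and 92.2 and 85.7 at Day 4. In shCTSL it was at 3.51 and 4.53, then 40.7 and 64.0, then 93.6 and 82.1. The Day 2 libraries of shCTSL were far apart and overlapped those of shSC. Dab2 rose between Day 0 and Day 2, with log2 fold changes of 4.10 ± 0.24 in shSC and 3.72 ± 0.24 in shCTSL (adjusted p = 3.54e-07 and 7.09e-07). The later step was 0.47 ± 0.19 in shSC (adjusted p = 0.0913), and in shCTSL Dab2 rose by 0.74 ± 0.19 (adjusted p = 0.0158).

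Pdgfra, the receptor for PDGF ligands on primitive endoderm and on mesoderm (chr5:75548316-75594229, plus strand), was at 1.07 and 0.867 normalized CPM in shSC at Day 0, 33.4 and 31.4 at Day 2, and 63.6 and 75.2 at Day 4. For shCTSL the levels were 1.27 and 1.58, then 21.2 and 35.9, then 55.9 and 47.4. The 2 libraries of shCTSL Day 2 again spanned those of shSC, while at Day 4 both shCTSL libraries were below both shSC libraries. Pdgfra rose in both steps. The log2 fold change to Day 2 was 5.07 ± 0.31 in shSC and 4.35 ± 0.30 in shCTSL (adjusted p = 4.81e-07 and 1.13e-06), and to Day 4 a further 1.10 ± 0.21 and 0.85 ± 0.21 (adjusted p = 0.00346 and 0.0141).

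**Figure D1:**
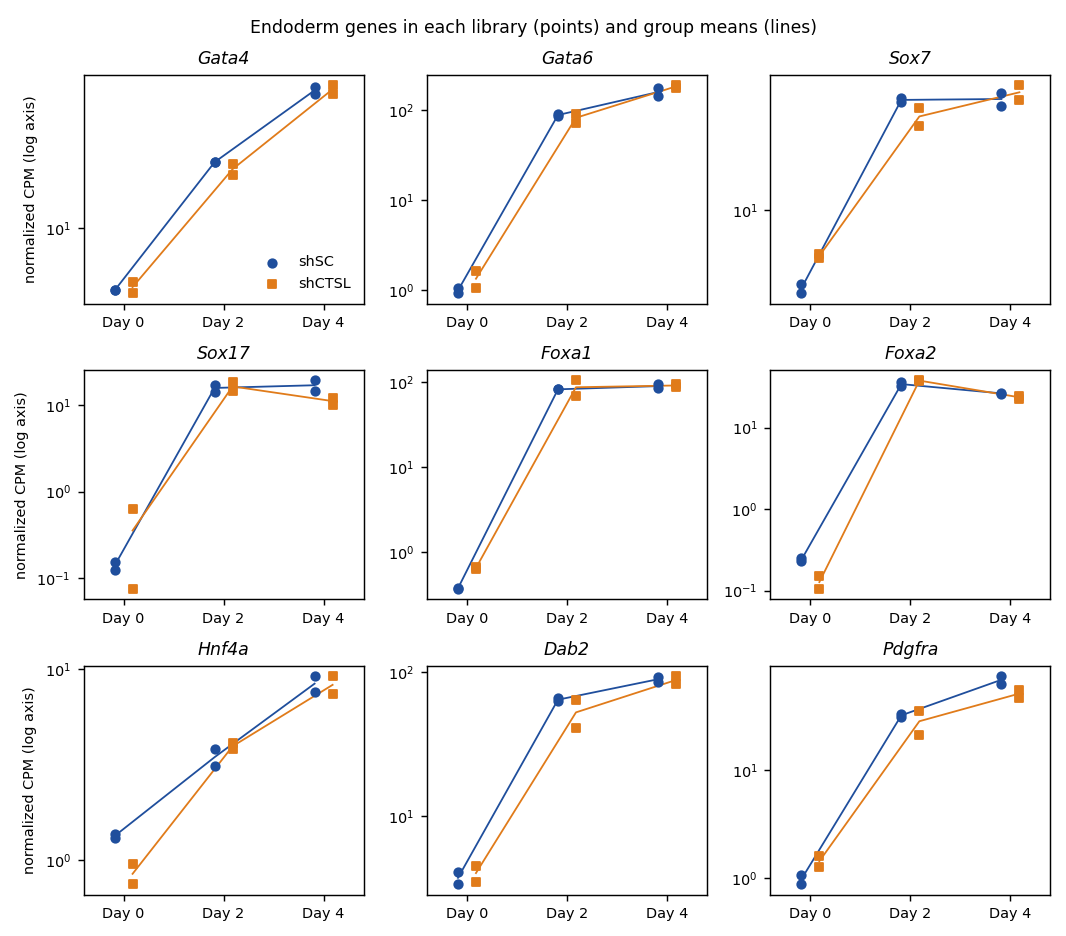
Normalized CPM (log axis) of each endoderm gene by day, with a point for each library and lines through the group means of shSC (circles) and shCTSL (squares). Day 0 lies below Day 2 and Day 4 in every panel, Foxa2 is highest at Day 2, and the 2 shCTSL Day 2 libraries are well apart for Foxa1, Dab2 and Pdgfra.

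From Day 0 to Day 2, 9 of 9 genes rose in shSC, where 29.3% of all tested genes were called higher, and 9 of 9 in shCTSL, where 30.9% were. From Day 0 to Day 4 the count was again 9 of 9, against 32.1% of all genes in shSC and 32.3% in shCTSL. Of these 9, Sox17, Foxa2 and Foxa1 had passed the filter through the later days. The other 6 reached the filter's cutoff in every Day 0 library, and 6 of 6 rose to Day 2 and to Day 4 in each line. Their median log2 fold change from Day 0 to Day 4 was 4.42 in shSC and 4.35 in shCTSL, beside 0.0287 and 0.0613 over all genes tested. With either shCTSL Day 2 library left out, 9 of 9 rose from Day 0 to Day 2 in shCTSL, where the log2 fold change of Pdgfra was 4.72 without replicate 1 and 3.92 without replicate 2, and that of Dab2 4.06 and 3.37. The increases at Day 4 ran from 2.64 ± 0.23 for Hnf4a to 7.86 ± 0.28 for Foxa1 in shSC, and from 2.91 ± 0.18 for Sox7 to 7.10 ± 0.27 for Foxa1 in shCTSL, apart from Foxa2, whose pooled counts there went from 3 to 909, a ratio of 179 (95% counting interval 61 to 869).

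Between Day 2 and Day 4 the genes parted. In shSC, Gata4, Gata6, Hnf4a and Pdgfra rose, 4 of 9 members against 11.4% of all genes called higher, and 0 of 9 fell, against 12.4% called lower. In shCTSL the same 4 genes and Dab2 rose, 5 of 9 against 11% of all genes, and Foxa2 fell, 1 of 9 against 12.4%. The median member difference was 0.472 on the log2 scale in shSC and 0.743 in shCTSL, against 0.0177 and -0.0161 over all genes. The calls in shCTSL other than those of Gata4 and Gata6 depended on which libraries were fitted. With only the compared libraries in the fit 2 members were called, Gata4 and Gata6, beside 648 of 14993 genes called higher and 553 lower. Adjusted p rose there to 0.0884 for Foxa2, 0.0642 for Hnf4a, 0.181 for Dab2 and 0.169 for Pdgfra. Without replicate 2 of shCTSL Day 2, where more of all genes were called than in the main fit, Sox7 differed by 0.60 and Sox17 by -0.74. Without replicate 1, Dab2 (0.43) and Pdgfra (0.50) dropped under a 1.5-fold change. With offsets for exonic length as well, Foxa2 (-0.47) was under a 1.5-fold change without replicate 2. Dab2 (0.64) and Pdgfra (0.72) were also not called without replicate 1 of shCTSL Day 4.

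**Figure D2:**
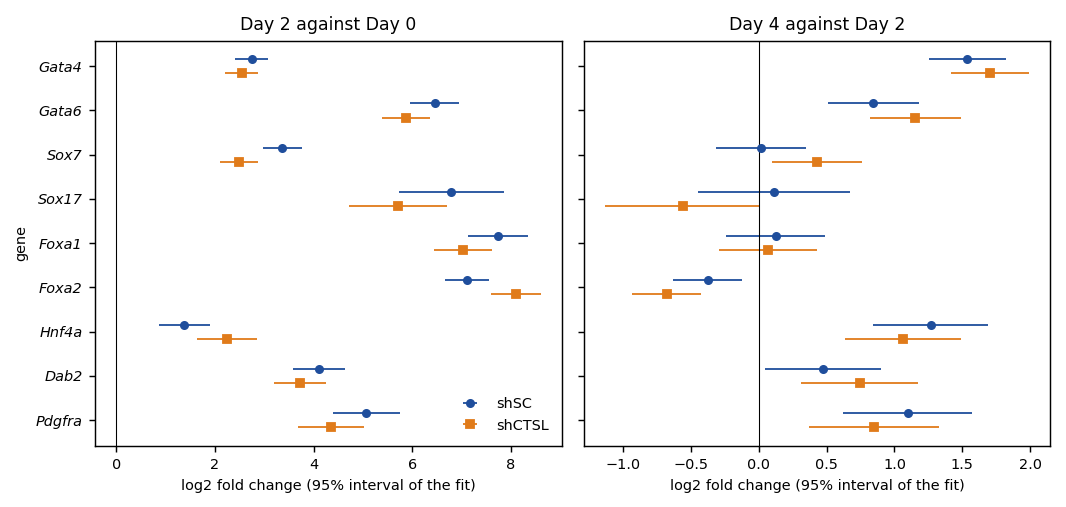
Log2 fold changes of the endoderm genes from Day 0 to Day 2 (left) and from Day 2 to Day 4 (right) in shSC (circles) and shCTSL (squares), with 95% intervals of the edgeR fit as bars. All points on the left lie above 0. On the right Gata4 is highest at 1.54 and 1.71, Foxa1 lies near 0 in both lines, and Foxa2 lies below 0 at -0.38 and -0.68.

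Comparing the lines asks whether endoderm genes differed between the knockdown line and the control line. Ctsl RNA was still at 255 ± 3.31 normalized CPM in shCTSL at Day 4, against 453.4 ± 42.9 in shSC. In shSC at Day 0 it was at 142.2 ± 7.15. Whether the genes depend on cathepsin L was not tested. None of the 9 genes was called different between shCTSL and shSC on any day. At Day 0 the edgeR count was 0 of 9, where 0.0386% of all genes were called, and 1 member had an unadjusted p under 0.05. That gene was Sox7, at 4.04 and 3.59 normalized CPM in shSC and 5.82 and 5.58 in shCTSL, a log2 difference of 0.58 ± 0.20 (95% interval 0.15 to 1.02, adjusted p = 0.514). DESeq2 and limma-voom also called 0 members at Day 0. For the sparsest genes the Day 0 comparison was loose: the ratio of pooled counts, shCTSL over shSC, was 2.24 for Sox17 (95% counting interval 0.568 to 10.4) and 0.548 for Foxa2 (0.0914 to 2.4). For Gata4 the ratio was 1.04 (0.78 to 1.37), and for Dab2 1.05 (0.782 to 1.39). The libraries of the 2 lines did not overlap for 5 of 9 members, where 51.3% of all genes did not overlap. Sox7, Foxa1 and Pdgfra were higher in shCTSL in that count, and Foxa2 and Hnf4a lower.

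At Day 2 the count was 0 of 9 against 0.0644% of all genes, 0 members had an unadjusted p under 0.05, and DESeq2 and limma-voom called 0. The log2 differences lay between -0.29 ± 0.15 for Sox7 and 0.19 ± 0.20 for Hnf4a. The 95% interval was -0.43 to 0.14 for Gata4, -0.43 to 0.23 for Gata6, and -0.11 to 0.39 for Foxa2. The lines did not overlap for 3 members, Gata4, Sox7 and Foxa2, against 45.5% of all genes. This comparison turned on 1 library. Without replicate 2 of shCTSL Day 2, Dab2 (-0.66, adjusted p = 0.000136) and Pdgfra (-0.62, adjusted p = 0.00133) were called lower in shCTSL, in a fit that called 2400 of 15837 genes higher and 2612 lower, while without replicate 1 their differences were 0.0048 and 0.15. With offsets for exonic length, 0 members were called in the fit of all libraries and also with either of these libraries left out. Without replicate 2 the offsets gave -0.23 for Dab2 (adjusted p = 0.0515), -0.24 for Pdgfra (adjusted p = 0.148) and -0.54 for Sox7, which is under a 1.5-fold change (adjusted p = 0.00229).

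At Day 4 the count was 0 of 9 against 0.0129% of all genes, and 1 member, Sox17, had an unadjusted p under 0.05. Its difference was -0.62 ± 0.26 on the log2 scale (95% interval -1.19 to -0.05, adjusted p = 0.387), with both shCTSL libraries lower. All 9 members were higher in replicate 1 than in replicate 2 of shCTSL Day 4. DESeq2 called 0 members at Day 4. Sox17 was called lower in shCTSL by limma-voom with library quality weights (-0.64, adjusted p = 0.033), which called 322 of 15532 genes higher and 401 lower. When only the Day 4 libraries were fitted, it was called at -0.60 (adjusted p = 0.0275), beside 361 of 14735 genes higher and 350 lower. When both shCTSL Day 2 libraries were left out, it was called at -0.62 (adjusted p = 0.0167), beside 454 of 15421 genes higher and 455 lower. Fits with either of these left out also called far more of all genes than the main fit. In them Sox17 was called, at -0.62 without replicate 1 and -0.63 without replicate 2. It was not called with a Day 4 library left out, where the difference ran from -0.80 to -0.41 (adjusted p = 0.506 to 0.956), or with length offsets (-0.66, adjusted p = 0.25). Pdgfra differed by -0.42 ± 0.21 (95% interval -0.89 to 0.05, adjusted p = 0.439). The remaining members had intervals that covered 0. Examples are 0.02 ± 0.12 for Gata4 (-0.25 to 0.30), 0.21 ± 0.15 for Gata6 (-0.12 to 0.54) and -0.16 ± 0.12 for Foxa2 (-0.42 to 0.10). Dab2 had a wider one, at -0.02 ± 0.19 (-0.44 to 0.41). Of the 9, 4 did not overlap between the lines (Gata6 higher in shCTSL, Sox17, Foxa2 and Pdgfra lower), against 61.5% of all genes.

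**Figure D3:**
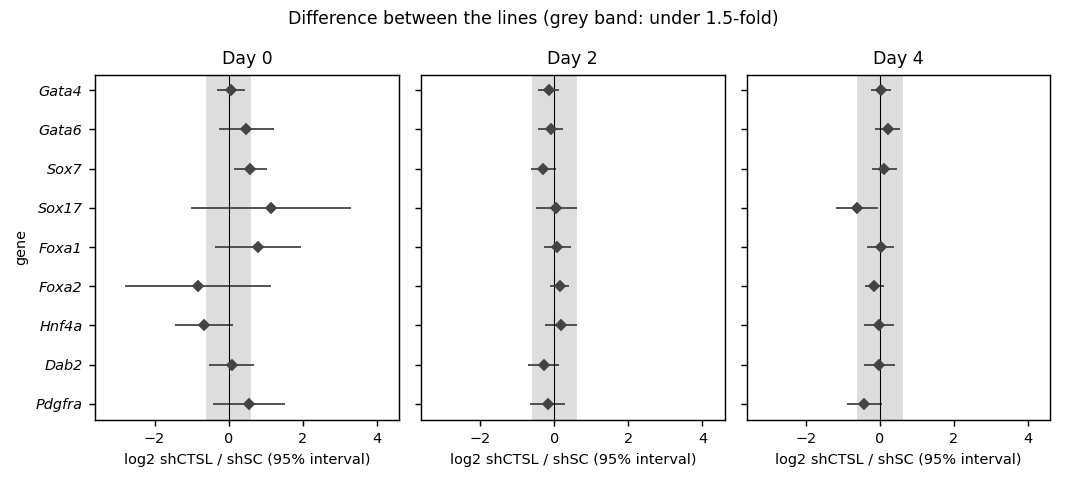
Log2 difference between shCTSL and shSC for each endoderm gene at Day 0, Day 2 and Day 4, with 95% intervals of the fit as bars and the range under a 1.5-fold difference shaded. Intervals at Day 0 are widest for Sox17 and Foxa2, which had 1 to 6 counts per library there. At Day 4 Sox17 is the one gene whose interval lies wholly below 0.

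Averaged over the 3 days, 0 of 9 members differed between the lines, against 0.27% of all genes, and 0 had an unadjusted p under 0.05. DESeq2 and limma-voom also called 0. The mean differences ran from -0.28 for Foxa2 to 0.30 for Foxa1. Whether the change over days differed between the lines was tested as an interaction, and 0 of 9 members were called for any step. For Day 2 against Day 0 the share of all genes called was 0%, for Day 4 against Day 0 it was 0.00644%, and for Day 4 against Day 2 it was 0%. DESeq2 and limma-voom also called 0 members for each step. In the first step 2 members had an unadjusted p under 0.05. The interaction was -0.88 ± 0.25 on the log2 scale for Sox7 and 0.86 ± 0.38 for Hnf4a (adjusted p = 0.39 and 0.444), and neither passed. For both later intervals 0 members had an unadjusted p under 0.05. Without replicate 2 of shCTSL Day 2 some interactions were called, in fits that called far more of all genes than the main fit. In the first step they were then -1.06 for Sox7, -0.73 for Dab2 and -1.16 for Pdgfra. In the step from Day 2 to Day 4 they were 0.59 for Sox7, -0.86 for Sox17 and 0.64 for Dab2. With length offsets as well, the first step gave -1.15 for Sox7, and the later one 0.63 for Sox7 and -0.80 for Sox17.

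Levels can be compared between genes only per length, so normalized CPM were divided by the exonic length in kilobases (GENCODE M1). At Day 0 in shSC the order began with Sox7 (1.16 ± 0.0959 normalized CPM per kb) and Gata4 (1.01), and ended with Sox17 (0.0438 ± 0.0064). By Day 2 it was led by Gata6 (27.4 ± 0.673) and Foxa1 (25.6 ± 0.0763). At Day 4 Gata6 led at 49.3 ± 6.72, followed by Foxa1 at 28.0 ± 2.25 and Gata4 at 19.75 ± 1.35, and these 3 did not overlap. The next 4 were Dab2 (12.1 ± 0.634), Sox7 (12.03 ± 1.4), Foxa2 (11.05 ± 0.321) and Pdgfra (10.3 ± 1.23), each overlapping its neighbour in the order. Sox17 (5.42 ± 1.04) and Hnf4a (1.68 ± 0.229) came last and stood apart. Dab2 has 2 records in the annotation, so that its length of 7344 bases, and with it the level per kb, is less certain than the others.

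**Figure D4:**
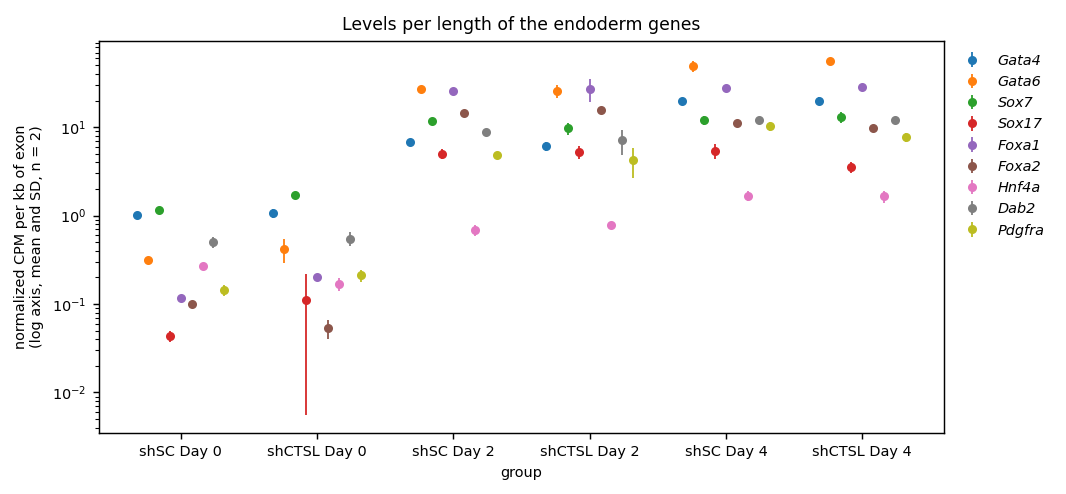
Normalized CPM per kb of exon (log axis) for each endoderm gene in each group, with the group mean as a point and the SD (n = 2) as a bar. Gata6 and Foxa1 pass from below 0.5 at Day 0 to the highest levels at Day 2 and Day 4, and Hnf4a is lowest at both later days.

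Products and partners of endoderm were read from lists of other genes, for which 28.7% of all genes were called lower at Day 4 against Day 0 in shSC and 27.6% in shCTSL, beside the shares called higher given above. Of 12 visceral endoderm genes, 8 rose and 3 fell in shSC, and 9 rose and 1 fell in shCTSL. Ttr, a thyroid hormone and retinol carrier, had no count in the Day 0 libraries of either line and reached 83.8 ± 11.1 normalized CPM at Day 4 in shSC and 105.8 ± 0.591 in shCTSL, at least 817-fold and 808-fold above the level of 3 counts over the group. Afp, the fetal serum protein, had no count at Day 0 in shSC and reached 39.5 ± 8.72, at least 385-fold above that floor. Other members of the list were already high in mESCs: Apoe went from 465 ± 26.6 to 282 ± 38.4 and Lrp2, an uptake receptor, from 124.6 ± 21.9 to 68.0 ± 22.2 in shSC (log2 fold changes -0.72 and -0.87, adjusted p = 0.0083 and 0.0199).

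Of 9 parietal endoderm genes, 8 rose in shSC and 7 in shCTSL, and 0 fell. The list's sum was already 1474 to 1531 normalized CPM at Day 0 in shSC and 1418 to 1517 in shCTSL. It holds matrix genes of that tissue, and not all of them rose. Lamc1, named after its values were seen, went from 833.5 ± 20.7 at Day 0 to 686.4 ± 80.1 at Day 4 in shSC. In shCTSL it went from 803.7 ± 44.5 to 565.6 ± 80.5. Plat, tissue plasminogen activator, had means of 0.739 ± 0.182 and 153.6 ± 1.87 normalized CPM at Day 0 and Day 4 of shSC, and of 0.847 ± 0.143 and 148.8 ± 1.25 in shCTSL. Pth1r, a parathyroid hormone receptor of parietal endoderm, rose by 5.41 ± 0.25 on the log2 scale in shSC. Of 8 tested genes of definitive endoderm and the anterior streak, 6 rose and 1 fell in each line. The one that fell was Mixl1, a streak homeobox factor, by 2.41 ± 0.51 in shSC. Lhx1, a factor of anterior mesendoderm and kidney, was at 0.184 ± 0.172, 32.4 ± 1.24 and 8.25 ± 3.73 normalized CPM at Day 0, Day 2 and Day 4 of shSC, and Cxcr4, a surface marker of definitive endoderm, at 0.553 ± 0.0808, 10.8 ± 0.139 and 18.1 ± 5.37.

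Among 12 tested paralogs and cofactors, 9 rose and 3 fell in each line. Gata5, another GATA factor of endoderm and heart, rose in both lines, from 0.107 ± 0.064 and 0.0527 ± 0.0745 normalized CPM at Day 0 to 37.8 ± 5.95 in shSC and 38.0 ± 1.7 in shCTSL at Day 4. Dab1, the neural relative of Dab2, fell by 2.06 ± 0.19 in shSC. In the mean over the days 1 gene of the list was called between the lines, Sox18, at -0.67 ± 0.11 (adjusted p = 0.0421), named after its values were seen. It is a close relative of Sox7 and Sox17 and an endothelial factor, and was at 2.98 ± 0.337, 28.7 ± 4.22 and 20.9 ± 0.0694 normalized CPM over the 3 days in shSC and 1.36 ± 0.0188, 16.1 ± 1.66 and 20.3 ± 2.43 in shCTSL.

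The signals that feed primitive endoderm moved in different directions. Fgf4, made by undifferentiated cells, fell in shSC from 319.8 ± 0.624 to 6.53 ± 0.894 normalized CPM (log2 fold changes -5.60 ± 0.13 in shSC and -5.54 in shCTSL), whereas its receptor Fgfr2 rose by 3.60 ± 0.21 and 3.98. In shSC 2 of 4 FGF genes rose and 1 fell, and in shCTSL 1 rose and 1 fell. Fgfr1 rose by 0.67 ± 0.15 in shSC. Of the 4 PDGF ligands that Pdgfra or its relative can bind, 1 rose and 1 fell in shSC, and 2 rose and 1 fell in shCTSL. Pdgfa, the main ligand of Pdgfra, fell (log2 fold changes -2.85 ± 0.20 in shSC and -2.62 in shCTSL), to 8.28 ± 0.153 and 9.25 ± 0.76 normalized CPM, while the receptor rose. Pdgfd rose from 0.0691 ± 0.0101 and 0.127 ± 0.031 to 7.85 ± 0.213 and 5.30 ± 1.16. Of 7 pluripotency genes 7 fell in each line, among them Zfp42, a marker of naive mESCs (-4.87 ± 0.14 in shSC and -4.88 in shCTSL).

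Genes of the other tissues that use these factors moved over the same days. Of 9 tested mesoderm and heart genes 7 rose in each line, and in shCTSL 1 fell. Their summed level in the shSC libraries was 6.13 to 7.78 normalized CPM at Day 0 and 217 to 236 at Day 4, and in shCTSL it was 5.27 to 7.68 and 202 to 225. Foxf1, a lateral mesoderm forkhead factor, reached 61.3 ± 6.3 in shSC and 44.9 ± 2.41 in shCTSL, and Tbx5, a heart and limb factor with no count at Day 0 in shSC, reached 4.26 ± 1.03, at least 41.6-fold above the floor. Of 6 endothelial genes 4 rose and 1 fell in each line. Cdh5, the endothelial cadherin, went from 0.539 ± 0.115 to 66.2 ± 3.46 in shSC, and the list's sum was 98.1 to 101.2 at Day 0 and 221 to 238 at Day 4. In shCTSL that sum was 73.7 to 75.5 at Day 0 and 172 to 207 at Day 4. Pecam1, which mESCs express too, fell by 0.88 ± 0.13 in shSC.

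Of 4 floor plate genes tested 2 rose and 2 fell in each line. Shh, the floor plate and gut signal, had no count at Day 0 in shSC and reached 37.0 ± 5.25 normalized CPM at Day 4, at least 361-fold above the floor, while Ntn1 fell by 2.29 ± 0.11. The list's sum was lower at Day 4 (85.5 to 92.9) than at Day 0 (148 to 151) in shSC, and in shCTSL it was 72.1 to 75.2 and 126 to 129. At Day 4 no gene of these lists was at 0 in both libraries of a group. Of 7 neural genes 4 rose and 1 fell in shSC, and 5 rose and 1 fell in shCTSL. Tubb3, a neuronal tubulin, fell by 3.94 ± 0.20 in shSC. Between the lines at Day 2, 0 of 9 mesoderm and heart genes and 0 of 6 endothelial genes were called, and the median log2 differences were 0.0109 and -0.834. The endothelial sum at Day 2 was 134 to 151 in shSC and 80.0 to 80.5 in shCTSL. The mesoderm and heart sum was 122.5 to 125.3 in shSC and 59.3 to 83.6 in shCTSL, and most of it was Kdr, a receptor of endothelial and mesodermal precursors, named after its values were seen. Kdr was at 93.7 and 97.1 in the shSC libraries and at 25.3 and 52.5 in shCTSL (adjusted p = 0.184). The other 9 genes of the list summed to 25.4 to 31.6 in shSC and 31.1 to 34.0 in shCTSL, which overlapped. The part of these tissues in the levels of Gata4, Gata6, Pdgfra, Foxa1, Foxa2, Sox7 and Sox17 was not tested.

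**Figure D5:**
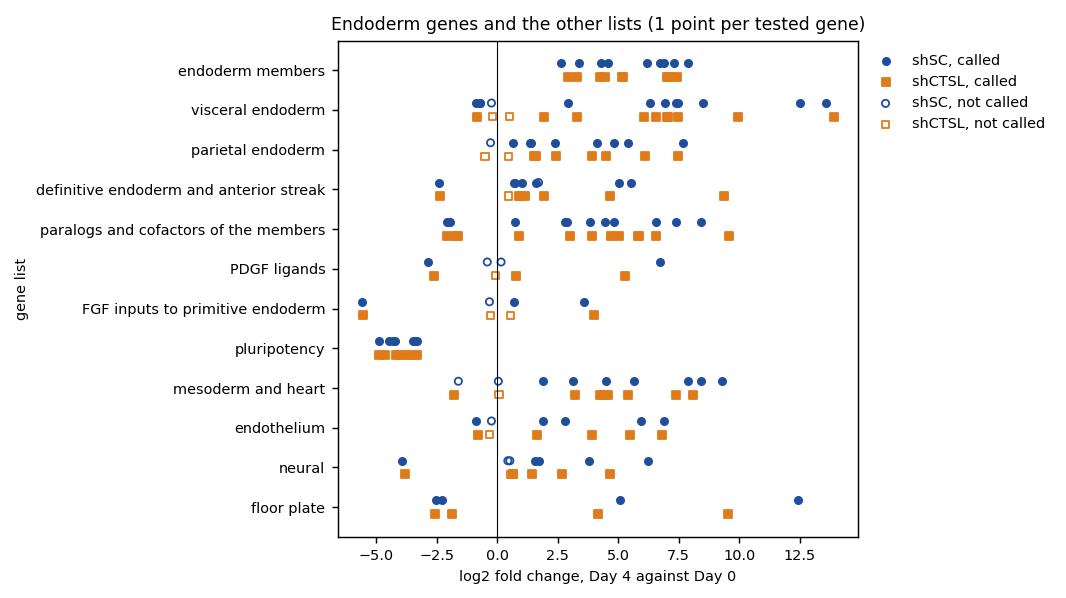
Log2 fold changes from Day 0 to Day 4 for each tested gene of the endoderm set and of the other lists, in shSC (circles) and shCTSL (squares), filled where called. The endoderm genes all lie above 0, the pluripotency genes all lie below 0, and the visceral endoderm list runs from -0.87 for Lrp2 to 13.59 for Ttr in shSC, where the values for Ttr, Afp, Tbx5 and Shh depend on a Day 0 count of 0.

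Across the 12 libraries the profiles of the members were much alike, as the day sets most of their variation. Pearson correlations of log2 normalized CPM between members ran from 0.869 for Sox17 and Hnf4a to 0.995 for Dab2 and Pdgfra, and all pairs share libraries and depth. Hnf4a and Gata4, both still climbing at Day 4, were at 0.982. Among 11056 other genes, the profile closest to Dab2 was that of Plat (0.998), a parietal endoderm gene, with Wt1 (0.998) and Fbn2 (0.997) next. For Hnf4a the closest were Cyth3, Mdfic and Gata5 (each 0.99). Gata6 was closest to Abtb2, Foxc1 and Adgra2 (each 0.998), Gata4 to Ppp1r13b, Phldb2 (both 0.998) and Abhd4 (0.997), and Pdgfra to Dchs1 (0.997), Neto2 and Mex3b (both 0.996). For the other 4 members the closest were Hoxb3 and Fli1 for Sox7 (both 0.996), Hoxb2 (0.993), Hoxc4 (0.992) and Efemp1 (0.991) for Sox17, Meis1 (0.998), Rgma and Gas1 (both 0.997) for Foxa1, and Fbxo32 (0.999), Mmp15 and Hoxb6 (both 0.998) for Foxa2. These are descriptions over 12 libraries, taken as the closest of many.

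Since all 9 members rose together and GATA, forkhead and SOX factors are among them, the 250 bases before their start sites were searched for the letters these families bind. RefSeq windows (GRCm38.p6) of 5 members were searched, Foxa1, Foxa2, Hnf4a, Dab2 and Pdgfra, in 9 windows. Gata4, Sox7 and Sox17 had no window, and Gata6 was left out of the search, so the counts below do not cover it. Searched on both strands were AGATAA or AGATAG or TGATAA or TGATAG for GATA factors, TGTTTAC or TGTTTGC for forkhead factors, and ATTGTT for SOX factors. A GATA match was in 3 of 9 windows, against 26.5% of all 32851 windows, a forkhead match in 1 of 9 against 7.29%, and a SOX match in 0 of 9 against 9.42%. The windows with a match are shown 5′ to 3′ along the gene, with the match in capitals: Foxa1 at chr12:57546112-57546361 (minus strand, forkhead letters on the opposite strand), Foxa2 at chr2:148045465-148045714 (minus strand), Hnf4a at chr2:163506607-163506856 (plus strand) and Dab2 at chr15:6299539-6299788 (plus strand). The single Pdgfra window and the other windows of Foxa2, Hnf4a and Dab2 hold none of these letters. A match is a string of letters and not a shown binding site.
Foxa1: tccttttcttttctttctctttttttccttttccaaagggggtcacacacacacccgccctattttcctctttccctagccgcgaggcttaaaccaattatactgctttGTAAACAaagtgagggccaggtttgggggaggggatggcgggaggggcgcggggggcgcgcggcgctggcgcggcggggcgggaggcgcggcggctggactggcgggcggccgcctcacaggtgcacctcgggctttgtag
Foxa2: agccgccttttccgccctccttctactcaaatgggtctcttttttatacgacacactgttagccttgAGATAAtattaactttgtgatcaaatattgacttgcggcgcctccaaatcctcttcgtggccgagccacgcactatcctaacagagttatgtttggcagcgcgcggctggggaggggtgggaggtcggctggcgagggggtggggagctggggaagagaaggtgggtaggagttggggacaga
Hnf4a: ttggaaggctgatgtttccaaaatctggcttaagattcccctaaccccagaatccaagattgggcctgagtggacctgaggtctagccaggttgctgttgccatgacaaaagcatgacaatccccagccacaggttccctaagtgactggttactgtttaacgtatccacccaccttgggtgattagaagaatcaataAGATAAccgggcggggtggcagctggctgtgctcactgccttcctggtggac
Dab2: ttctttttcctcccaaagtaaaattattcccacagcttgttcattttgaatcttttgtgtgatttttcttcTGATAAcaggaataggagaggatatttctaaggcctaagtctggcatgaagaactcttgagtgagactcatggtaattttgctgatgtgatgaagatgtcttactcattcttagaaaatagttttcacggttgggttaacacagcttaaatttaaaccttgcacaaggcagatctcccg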

How the data were processed

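Poly(A) RNA from the 12 libraries had been sequenced by the authors with a directional kit. Reads were aligned by them to mm9 with STAR 2.3.0e, filtered with SAMtools 0.1.19 for mapping quality and chromosomes, and counted per RefSeq gene with featureCounts 1.6.2. For the strand setting of the counting, the sources used here give nothing, so reads of overlapping or antisense genes may be included. The deposited values are raw whole-number counts for 24495 genes.

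The counts were tested with edgeR 4.0.16 (R 4.3.3). Its filterByExpr function (minimum count 10) left 15532 genes, which were normalized by TMM and fitted with a mean per group over all 12 libraries (6 residual degrees of freedom) by the quasi-likelihood method. A gene was called with a Benjamini-Hochberg adjusted p under 0.05, over all genes tested, and a change of 1.5-fold or more (log2 of 0.585). Standard errors are those at which the test gives its p, or for p over 0.5 those of the fitted weights. Ratios of pooled counts have exact 95% intervals, which cover counting error only.

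The members and lists were chosen with earlier results of these data known. From each list, the genes called from Day 0 to Day 4 in shSC with the 2 highest and 2 lowest fold changes could be named, and for each member the 3 genes with the closest profile (at least 10 normalized CPM in a group, prior count 2). Some genes that this rule names are not reported here. Alternatives were RLE normalization, DESeq2 1.42.0, other filters (22689 and 14655 genes), fits of fewer libraries, other cutoffs, a replicate block, limma-voom (limma 3.58.1) with quality weights, each library left out and, added after seeing the data, offsets for exonic length, also with either shCTSL Day 2 library left out. Positions and lengths come from GENCODE M1 on mm9, matched by symbol for 20561 genes. Figures used Python 3.11.15 and matplotlib 3.10.9.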

Additional observations from a re-analysis of the deposited data

How the results depend on the processing

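Under RLE normalization, DESeq2, a filter of 1 CPM in 2 libraries and the replicate block, 107 of 107 values and counts kept their direction and their side of the threshold. No pairing of the samples by replicate number was seen, as 1 of 15 correlations of same-numbered deviations was over 0.1 (range -0.359 to 0.156). The length trends given above also enter these correlations, so they cannot show that the samples are unpaired. With the replicate block, 0 members were called between the lines on any day and 6 from Day 2 to Day 4 in shCTSL. The calls from Day 0 were 9 of 9 under each alternative, except 8 from Day 0 to Day 2 in shSC with a log2 cutoff of 1.5, where Hnf4a was under it. With that cutoff, 1 member was called from Day 2 to Day 4 in shSC, and 1 in shCTSL. In shCTSL that count was 2 with only the compared libraries and 2 by limma-voom, and it also moved with a library left out. Between the lines it was 1, Sox17, at Day 4 with only the compared libraries, by limma-voom and without both or either of the shCTSL Day 2 libraries. Those fits also called far more of all genes than the main fit, as given above. With each library left out the count ran from 0 to 2 at Day 2 and 0 to 1 at Day 4, and the interactions from 0 to 3 for Day 2 against Day 0 and 0 to 3 for Day 4 against Day 2. Reversals were of differences that did not pass. For Sox7 from Day 2 to Day 4 in shSC they were -0.0055 with no filter, -0.014 with only the compared libraries, -0.0014 by limma-voom and -0.012 without both shCTSL Day 2 libraries. Between the lines at Day 4 they were -0.0072 for Gata4 and -0.0051 for Foxa1 with no filter, 0.010 for Hnf4a and 0.0024 for Dab2 with only the compared libraries, and -0.015 for Foxa1, 0.046 for Hnf4a and 0.14 for Dab2 with length offsets, which gave -0.0060 for Sox17 at Day 2. With length offsets and without shCTSL Day 2 replicate 1 they were -0.20 for Foxa1 from Day 2 to Day 4 in shCTSL and, between the lines at Day 2, 0.042 for Gata6, -0.14 for Sox17 and 0.14 for Pdgfra. With the offsets and without replicate 2 they were -0.34 for Foxa1 and -0.13 for Foxa2 at Day 2. With a library left out, the ranges of the reversed values were as follows. From Day 2 to Day 4 they were -0.11 to 0.13 for Sox7 and -0.11 to 0.29 for Sox17 in shSC, and -0.22 to 0.39 for Foxa1 in shCTSL. Between the lines at Day 0 they were -0.062 to 0.19 for Gata4, -0.82 to 2.15 for Sox17 and -0.10 to 0.27 for Dab2. At Day 2 they were -0.28 to 0.063 for Gata6, -0.12 to 0.23 for Sox17, -0.25 to 0.35 for Foxa1, -0.66 to 0.0048 for Dab2 and -0.62 to 0.15 for Pdgfra. At Day 4 they were -0.082 to 0.11 for Gata4, -0.028 to 0.25 for Sox7, -0.059 to 0.11 for Foxa1, -0.19 to 0.13 for Hnf4a and -0.12 to 0.073 for Dab2. The interactions were -2.10 to 0.88 for Sox17 in Day 2 against Day 0, -2.77 to 0.20 for Sox17 in Day 4 against Day 0, and -0.018 to 0.64 for Dab2 in Day 4 against Day 2. The cause of these changes was not tested. With 1 to 9 counts per library, Sox17, Foxa1 and Foxa2 could not be compared closely between the lines at Day 0.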
